A study of Mus musculus with 9 samples.

Results

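The genes described here mark the B cell in the mouse lymph node. They are 9 in number, Cd79a, Cd79b, Ms4a1, Pax5, Cr2, Fcer2a, Cd22, Cd37 and Blk, and were taken by symbol from the 37801 gene entries of the expression table that were used. Each symbol had 1 entry, and all 9 passed the filter on low values, with at least 1 fragment per kilobase of transcript, scaled to the fragments of the library (FPKM), in each library. RNA was measured in 9 libraries, 3 per group. WT libraries came from albino FVB/NJ mice with wild-type NRAS and wild-type MHC class II, which the protocol describes as littermates without the transgene. Tyr-NrasQ61K libraries came from an FVB/NJ cross that carries NrasQ61K under the tyrosinase promoter, which is active in melanocytes, and are labelled Cre-negative with wild-type MHC class II. MHCII-KO libraries carry the same NRAS allele on an FVB/NJ cross and are labelled Cre-positive and MHC class II knockout. The sources used here do not give the MHC class II gene deleted, the promoter that drives the Cre or the age of the animals. The design text calls the NRAS allele Cre-inducible, whereas the strain description gives the tyrosinase promoter alone. Whether each replicate is its own animal is not stated, and p-values then describe only how much these libraries spread.

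The labels name nevus melanocytes as the source, whereas the study describes lymph node RNA. The B cell genes were well above the melanocyte genes in every library. The FPKM of the 9 B cell genes had a sum between 424 and 770 per library, and that of 8 melanocyte genes to between 3.89 and 5.67 in WT, 12.7 and 17.4 in Tyr-NrasQ61K, and 6.84 and 12.1 in MHCII-KO libraries. H2-Ab1, the beta chain of the I-A class II molecule, had an FPKM of 183, 101 and 170 in WT, 149, 276 and 207 in Tyr-NrasQ61K, and 271, 108 and 165 in the libraries labelled MHCII-KO, so the knockout was not visible in its level in node RNA. H2-Aa, the alpha chain, had 634, 362 and 499 in the libraries labelled MHCII-KO and 587, 276 and 802 in Tyr-NrasQ61K. Replicate 2 of Tyr-NrasQ61K and replicate 2 of MHCII-KO lay at one end of the first principal component, at 102 and 78.6. They are the 2 libraries said below to stand apart. WT replicates 1 and 3 lay at the other end, at -74.1 and -73.4, with WT replicate 2 at -20.4. Replicate 3 of Tyr-NrasQ61K was distant along the second component. The depth of the libraries is known only as a ratio to WT replicate 1. It was 0.753 in Tyr-NrasQ61K replicate 2 and 0.865 in MHCII-KO replicate 2, between 1.33 and 1.68 in 5 other libraries, and was not recovered for Tyr-NrasQ61K replicate 3. The main values of Ms4a1, Cd79b, Pax5 and Cd37 are also given without some of these NrasQ61K libraries where leaving them out moved the values.

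B cells recognise antigen through a membrane immunoglobulin that signals through the heterodimer of Cd79a and Cd79b. Pax5 is the transcription factor that commits a lymphoid progenitor to the B lineage and keeps it there, and several of the other genes are among its targets. In the lymph node, resting B cells gather in follicles around follicular dendritic cells, where the complement receptor Cr2 and the low-affinity IgE receptor Fcer2a mark mature follicular cells. Cd22 and Blk tune the receptor signal, Cd22 as an inhibitory sialic acid-binding lectin and Blk as a Src-family kinase. Ms4a1 encodes CD20, and Cd37 encodes a tetraspanin of the leukocyte surface.

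Promoter sequences were taken from RefSeq on GRCm38.p6, as the 250 bases before each annotated start. Cd79a, Pax5, Cr2, Fcer2a, Cd22 and Cd37 had an entry, Fcer2a with 3 starts, and Cd79b, Ms4a1 and Blk had none. Shown here are windows of Cr2 and Fcer2a, the receptors of the follicular B cell, and of Pax5, the regulator, each outside the exons that GENCODE M21 annotates except for 1 base at the Fcer2a start. Each is written 5′ to 3′ on the strand of the gene, with matches to the motifs searched in capitals.
Cr2, chr1:195176720-195176969, minus strand: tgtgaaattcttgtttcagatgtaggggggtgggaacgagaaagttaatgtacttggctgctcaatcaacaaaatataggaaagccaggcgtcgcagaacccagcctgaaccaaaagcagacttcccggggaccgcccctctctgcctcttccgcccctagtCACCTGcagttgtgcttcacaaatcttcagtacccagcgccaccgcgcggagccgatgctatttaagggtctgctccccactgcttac
Pax5, chr4:44710695-44710944, minus strand: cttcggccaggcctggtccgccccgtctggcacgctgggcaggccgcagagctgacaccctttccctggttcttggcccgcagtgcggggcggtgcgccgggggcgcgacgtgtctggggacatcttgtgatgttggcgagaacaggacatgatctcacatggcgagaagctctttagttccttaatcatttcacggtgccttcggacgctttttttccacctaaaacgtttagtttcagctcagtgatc
Fcer2a, chr8:3694175-3694424, minus strand: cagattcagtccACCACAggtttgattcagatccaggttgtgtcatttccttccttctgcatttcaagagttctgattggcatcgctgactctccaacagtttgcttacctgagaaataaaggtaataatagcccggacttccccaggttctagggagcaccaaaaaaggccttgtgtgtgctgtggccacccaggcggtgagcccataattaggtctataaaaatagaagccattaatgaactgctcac
The motifs, searched on both strands, were the octamer ATGCAAAT, the EBF half-sites CCCNNGGG, the PU.1 box GAGGAA, the E2A E-box CAGGTG and the RUNX motif TGTGGT. The E-box lay in 5 of the 8 windows, those of Cr2, Cd79a, Cd22, Cd37 and the second Fcer2a start. It lay in 17.2% of all 32851 promoter windows of the same length. The windows of Cd79a, Cd22 and Cd37, not shown, held 116, 102 and 165 bases of annotated exons. The Cr2 match shown began 88 bases before the start. The PU.1 box lay in windows of Cd79a and Cd37, and in 23.3% of all windows. The EBF half-sites lay in the Cd22 window and in 11.8% of all, and the RUNX motif in the Fcer2a window shown and in 14% of all. The octamer lay in none of the 8 windows and in 1.6% of all, and the Pax5 window held none of the 5 motifs.

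FPKM are scaled to transcript length, so levels can be set beside each other between genes. Cd79b was the highest of the 9 in WT libraries, with an FPKM of 202 ± 42.7 (SD, n = 3), followed by Ms4a1 with 122 ± 21.3. Cd37 had 80.8 ± 13, Cd79a 63.5 ± 9.54, Cd22 49.6 ± 3.15 and Cr2 39.3 ± 1.05. Pax5 had 34.9 ± 5.08, Fcer2a 32.2 ± 3.6 and Blk 24.6 ± 3.5. Neighbours in this order did not overlap between their WT libraries, with the exception of Cd37 and Cd79a, Cr2 and Pax5, and Pax5 and Fcer2a. In Tyr-NrasQ61K libraries the mean was highest for Cd37, followed by Cd79b and Ms4a1, and in MHCII-KO libraries Cd37 and Cd79a stood between Cd79b and Ms4a1. Fcer2a and Blk were the lowest of the 9 by mean in each group.

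The receptor chains Cd79a and Cd79b, whose products pair, ordered 27 of 36 pairs of libraries alike but shifted by different amounts. That difference in size was not tested. Cd79a (ENSMUSG00000003379, chr7:24897381-24902197, plus strand) had an FPKM of 74.4, 57.4 and 58.5 in WT, 60.4, 40 and 75 in Tyr-NrasQ61K, and 69.9, 51.9 and 59.7 in MHCII-KO libraries, and the 3 groups overlapped. Cd79b (ENSMUSG00000040592, chr11:106311341-106314762, minus strand) had 225, 153 and 228 in WT, 135, 47 and 172 in Tyr-NrasQ61K, and 147, 68.8 and 111 in MHCII-KO libraries. All 3 MHCII-KO libraries lay below the lowest WT library, whereas Tyr-NrasQ61K replicate 3 lay within the WT range.

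Ms4a1 (ENSMUSG00000024673, chr19:11249675-11266241, minus strand) had an FPKM of 136, 97.2 and 132 in WT, 75.2, 24.6 and 92.3 in Tyr-NrasQ61K, and 77.3, 33.7 and 45.1 in MHCII-KO libraries. It was the only one of the 9 genes with all 6 NrasQ61K libraries below all 3 WT libraries. Of all genes tested, 13% did not overlap in this comparison, in either direction. The lowest values of both Cd79b and Ms4a1 were in the libraries that stood apart, replicate 2 of each NrasQ61K group. Their highest values in the NrasQ61K groups were in Tyr-NrasQ61K replicate 3.

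**Figure D1:**
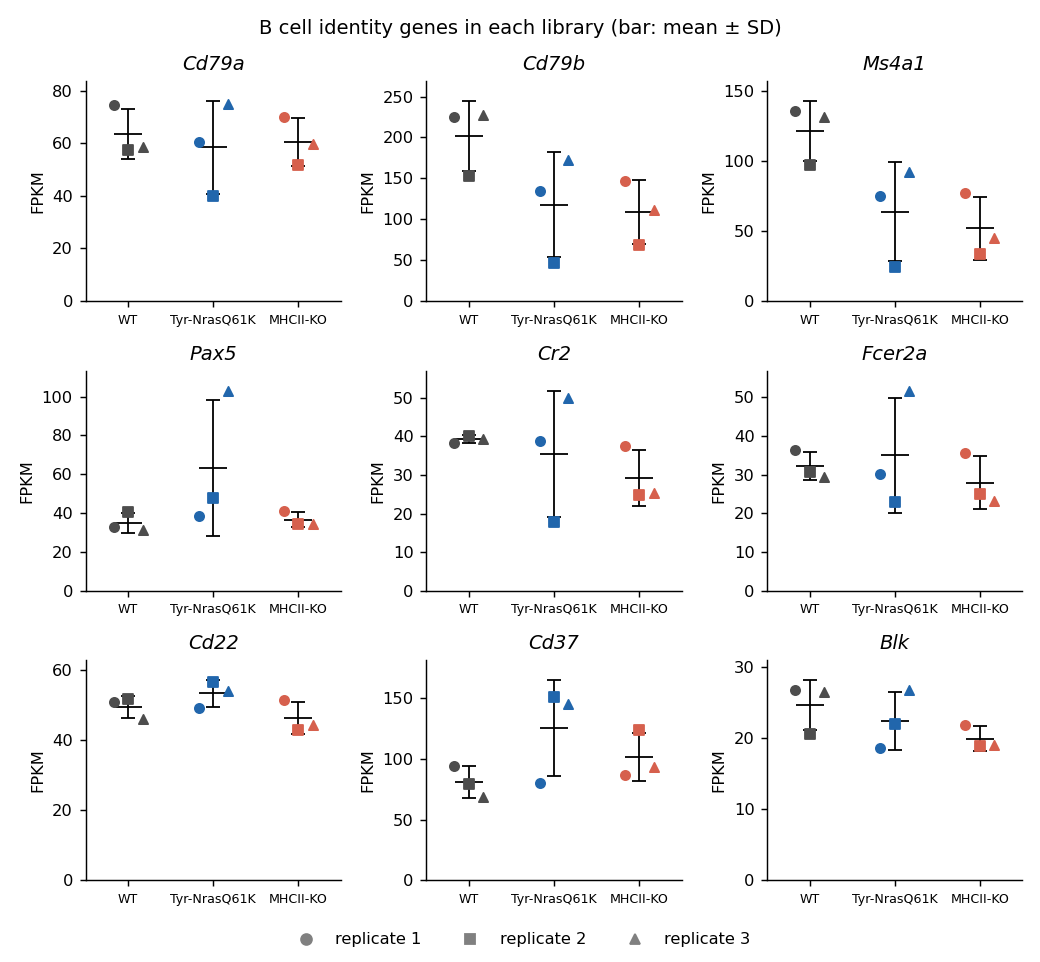
FPKM of each of the 9 B cell genes (y axis, from 0) in the WT, Tyr-NrasQ61K and MHCII-KO libraries, with the replicate shown by the symbol and the mean ± SD of each group as bars. All 6 NrasQ61K libraries lay below the WT libraries for Ms4a1, where 13% of all genes tested did not overlap in either direction. Pax5 had 103 in Tyr-NrasQ61K replicate 3 against 31.2 to 47.7 in the other libraries.

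Pax5 (ENSMUSG00000014030, chr4:44524757-44710487, minus strand) showed a different pattern. It had an FPKM of 32.8, 40.7 and 31.2 in WT, 38.3, 47.7 and 103 in Tyr-NrasQ61K, and 41.1, 34.2 and 34.3 in MHCII-KO libraries, so the high mean of the Tyr-NrasQ61K group came from replicate 3. The annotated exons of Pax5 share 125 bases with Gm12462 and 636 bases with 5730488B01Rik, both on the opposite strand, and the sources used here do not say whether strand was kept, so reads of these genes cannot be told apart there. Gm12462 had at most 4.94 FPKM in any library.

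The follicular receptors differed less between groups. Cr2 (ENSMUSG00000026616, chr1:195136811-195176716, minus strand) was nearly the same in the WT libraries, at 38.2, 40.2 and 39.4, with 38.7, 17.8 and 50 in Tyr-NrasQ61K and 37.6, 24.7 and 25.3 in MHCII-KO libraries. The MHCII-KO libraries lay below the WT libraries, replicate 1 by a small margin, and the Tyr-NrasQ61K libraries lay on both sides of them. Fcer2a (ENSMUSG00000005540, chr8:3681737-3694175, minus strand) had 36.3, 30.8 and 29.5 in WT, 30.2, 23 and 51.7 in Tyr-NrasQ61K, and 35.7, 24.9 and 23.1 in MHCII-KO libraries, with overlap between all groups.

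Cd22 (ENSMUSG00000030577, chr7:30865402-30880342, minus strand) was the steadiest of the 9. It had 51.1, 51.7 and 46 in WT, 49.3, 56.7 and 54.2 in Tyr-NrasQ61K, and 51.6, 43.1 and 44.3 in MHCII-KO libraries, a range of 1.32-fold from the lowest library to the highest, against 5.52-fold for Ms4a1 and 4.86-fold for Cd79b. The antisense gene Gm29439 shares 479 exon bases with Cd22. Blk (ENSMUSG00000014453, chr14:63372836-63417037, minus strand) had 26.8, 20.6 and 26.5 in WT, 18.6, 22 and 26.7 in Tyr-NrasQ61K, and 21.9, 18.9 and 19 in MHCII-KO libraries, a range of 1.44-fold.

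Cd37 (ENSMUSG00000030798, chr7:45233632-45239115, minus strand) ran against Cd79b, Ms4a1 and Cr2 across the libraries. It had 94.3, 79.7 and 68.3 in WT, 80.2, 151 and 145 in Tyr-NrasQ61K, and 86.9, 124 and 93.4 in MHCII-KO libraries. Its highest value, 151, was in Tyr-NrasQ61K replicate 2, the library where Cd79a, Cd79b, Ms4a1, Cr2 and Fcer2a had their lowest. Cd37 is also expressed by other leukocytes, and 13 of its exon bases are shared with Tead2.

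The first comparison asked whether the B cell genes of nodes that contain NrasQ61K melanocytes differed from those of WT nodes. None of the 9 genes was called in Tyr-NrasQ61K against WT at an adjusted p of at most 0.05 by limma with Benjamini-Hochberg adjustment, where 0.235% of all 16587 genes tested were called. At an unadjusted p under 0.05 the count was also 0, where 15.2% of all genes passed. Ms4a1 differed by -1.10 ± 0.519 (log2 difference ± SE, adjusted p = 0.338) and Cd79b by -0.94 ± 0.519 (adjusted p = 0.37), on the log2(FPKM + 1) scale, which slightly understates differences. Ms4a1 was 1 of 9 genes with no overlap between the groups, where 18.7% of all genes did not overlap. Pax5 differed by 0.71 ± 0.364 (adjusted p = 0.351) and Cd37 by 0.59 ± 0.329 (adjusted p = 0.376). Without Tyr-NrasQ61K replicate 3, Pax5 differed by 0.29 and Cd37 by 0.45, and without Tyr-NrasQ61K replicate 2 by 0.84 and 0.42. With each library weighted by its fit to its group, Pax5 differed by 0.33 and Cd37 by 0.08. The weights of the Tyr-NrasQ61K libraries were 4.15, 0.197 and 0.295 in order of replicate, so these 2 values rest mostly on replicate 1. The other 5 genes lay between -0.26 for Cr2 and 0.10 for Cd22. The median of the 9 was -0.14, beside -0.12 over all genes tested. In bulk RNA, fewer B cells and less RNA of these genes per B cell cannot be told apart.

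The next comparison set the libraries labelled MHCII-KO against WT. None of the 9 was called, where 0.145% of all genes were. Ms4a1 differed by -1.28 ± 0.519 (adjusted p = 0.329), and was the 1 gene with an unadjusted p under 0.05, where 15% of all genes passed. Cd79b differed by -0.93 ± 0.519 (adjusted p = 0.365), Cr2 by -0.44 ± 0.374 (adjusted p = 0.515) and Cd37 by 0.32 ± 0.329 (adjusted p = 0.589). Without MHCII-KO replicate 2, Cd37 differed by 0.17. Cd79b, Ms4a1 and Cr2 were lower in every MHCII-KO library than in every WT library, 3 of 9 genes, close to the 31.3% of all genes whose groups did not overlap. The other 5 lay between -0.28 for Blk and 0.07 for Pax5. The median of the 9 was -0.22, the same as over all genes. Both comparisons use the same WT libraries.

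**Figure D2:**
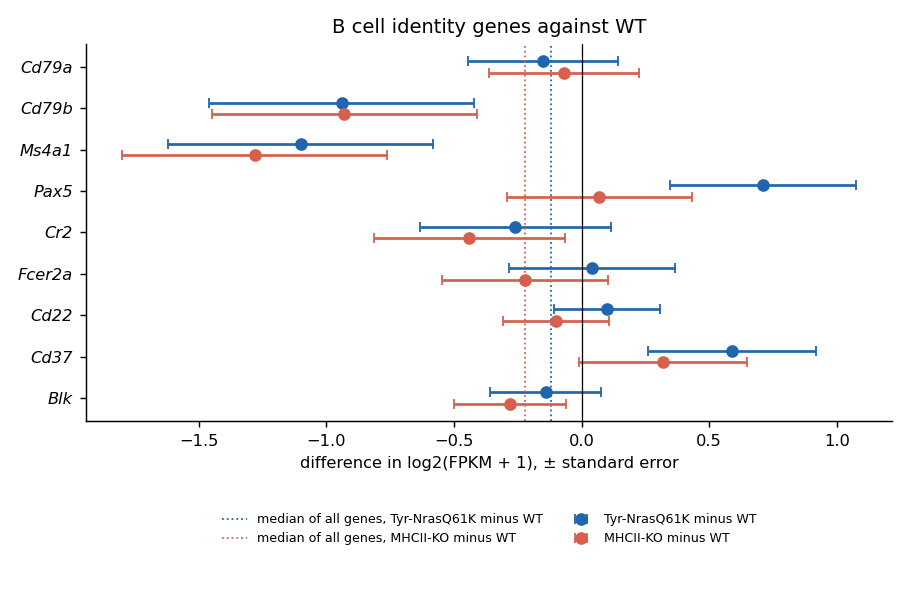
Difference in log2(FPKM + 1) from WT (x axis) for each of the 9 genes, for Tyr-NrasQ61K and MHCII-KO, with standard errors as bars and the median of all genes tested in each comparison as dotted lines. Cd79b and Ms4a1 had the lowest values in both comparisons, from -0.93 to -1.28, and none of the 9 was called.

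The libraries labelled MHCII-KO were then set against Tyr-NrasQ61K, which share the NRAS allele. None of the 9 was called, where 0.0482% of all genes were, and 0 had an unadjusted p under 0.05, where 1.52% of all genes did. All 9 overlapped between the groups, where 3.8% of all genes did not overlap. The largest difference of the 9 was that of Pax5, -0.65 ± 0.364 (adjusted p = 1), which was -0.23 without Tyr-NrasQ61K replicate 3. Cd79b differed by 0.01 ± 0.519 and Ms4a1 by -0.18 ± 0.519, with adjusted p = 1 for both. These values changed with the library left out. Without Tyr-NrasQ61K replicate 2, Cd79b differed by -0.55 ± 0.4 and Ms4a1 by -0.75 ± 0.388 (adjusted p = 0.757 for both), and the median of the 9 went from -0.18 to -0.51. Without MHCII-KO replicate 2, they differed by 0.30 and 0.08. Without Tyr-NrasQ61K replicate 3, Cd79b differed by 0.38 and Ms4a1 by 0.18, and without MHCII-KO replicate 3 by -0.04 and -0.12. Without replicate 2 of both NrasQ61K groups, they differed by -0.25 and -0.49.

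With both NrasQ61K groups pooled against WT, none of the 9 was called, where 0.398% of all genes were. Ms4a1 differed by -1.19 ± 0.45 (adjusted p = 0.21), a mean FPKM of 58 against 122 in WT, and was the 1 gene with an unadjusted p under 0.05, where 21.7% of all genes passed. It was also the 1 gene of 9 whose groups did not overlap, against 13% of all genes. Cd79b differed by -0.94 ± 0.45 (adjusted p = 0.255). When each library was weighted by its fit to its group, Ms4a1 and Blk were called in Tyr-NrasQ61K against WT, where 30.6% of all genes were called. With those weights Cd79b, Ms4a1, Cr2 and Blk were called in MHCII-KO against WT, where 44.7% of all genes were, and Cd79b, Ms4a1 and Blk in both groups together, where 45.5% were. The shares of the 9 genes were 22.2%, 44.4% and 33.3% in the same order, with 44.4% nearly equal to the 44.7% of all genes. As 1 gene of 9 is 11.1%, these shares cannot tell whether the 9 genes were called less often than others. Without replicate 2 of both NrasQ61K groups, the difference of Ms4a1 was -0.53 in Tyr-NrasQ61K and -1.01 in MHCII-KO, and that of Cd79b was -0.38 and -0.64.

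Within each library, the 9 genes did not move as one. The plot of each library against the WT mean shows Cd79b and Ms4a1 lower in all 6 NrasQ61K libraries, by 0.21 to 2.06 and by 0.38 to 2.24 on the log2(FPKM + 1) scale. In Tyr-NrasQ61K replicate 2, 6 of the 9 genes lay below the WT mean, with a median of -0.46, and Cd37 lay 0.91 above. In replicate 2 and replicate 3 of MHCII-KO, 8 of 9 lay below, with medians of -0.35 and -0.34. In Tyr-NrasQ61K replicate 3, 7 of 9 lay above, led by Pax5 at 1.55.

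**Figure D3:**
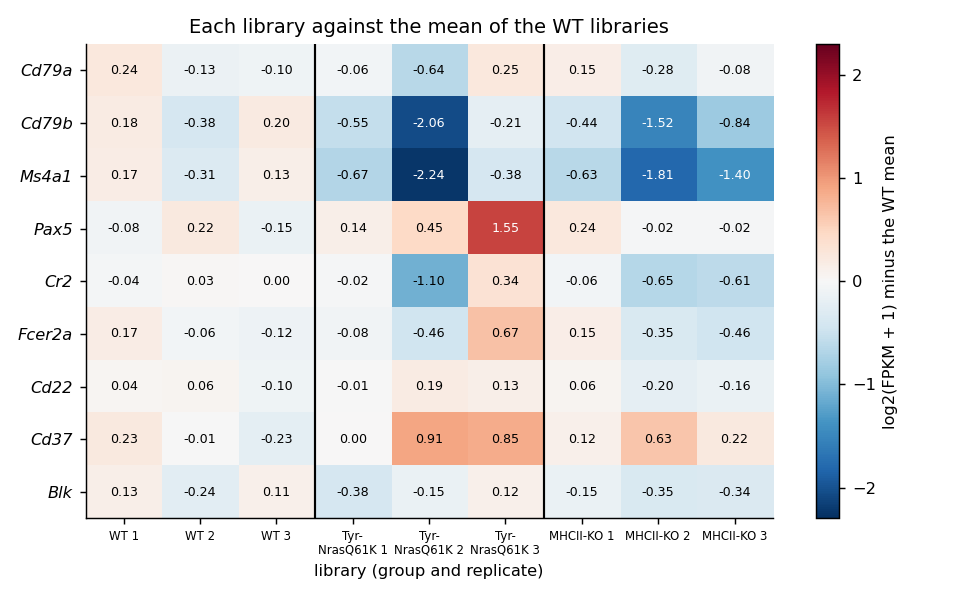
Level of each of the 9 genes (rows) in each library (columns) as log2(FPKM + 1) minus the mean of the 3 WT libraries, with blue for lower and red for higher. Cd79b reached -2.06 and Ms4a1 -2.24 in Tyr-NrasQ61K replicate 2, whereas Cd22 stayed between -0.20 and 0.19 in all libraries.

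Cd79b and Ms4a1 put the 9 libraries in nearly the same order, with 34 of 36 pairs of libraries ordered alike, the most of any pair of the 9 genes. Cd79b and Cd37 ordered 10 of 36 pairs alike, as did Ms4a1 and Cd37, the fewest of any pair along with Cr2 and Cd37. All genes share the libraries, so these counts are a description. Transcripts of Ms4a1 and Cr2 were low in GC, at 40.6% and 41.4%, beside a median of 49.7% over the genes tested. Those of Cd37, Cd79a and Cd79b were above it, at 57.3%, 54.9% and 54.2%, and Pax5, Fcer2a, Cd22 and Blk lay between 50.6% and 53.9%. Across 15168 genes tested, the shift of the 2 libraries that stood apart from the 4 other NrasQ61K libraries had a Spearman rho of 0.414 with GC content. This shift was -1.25 for Ms4a1, -0.78 for Cr2 and 0.47 for Cd37. For Cd79b and Cd79a, both above the median in GC, it was -1.28 and -0.52. Pax5 had -0.26, Fcer2a -0.48, Cd22 -0.01 and Blk -0.06. The part of GC content in the levels of these genes was not tested.

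Ratios between the genes were set side by side after their values had been seen, as a description. The FPKM of Cd79b over that of Cd79a was 3.02, 2.66 and 3.9 in WT, 2.24, 1.18 and 2.29 in Tyr-NrasQ61K, and 2.1, 1.33 and 1.86 in MHCII-KO libraries. No NrasQ61K library reached the lowest WT library. Of all single genes tested, 13% did not overlap between both NrasQ61K groups and WT, and how often other ratios separate was not tested. The ratio of Ms4a1 to Cd79a was 1.83, 1.69 and 2.25 in WT, 1.25, 0.616 and 1.23 in Tyr-NrasQ61K, and 1.11, 0.65 and 0.755 in MHCII-KO libraries, again with no overlap. Cd79b and Ms4a1 together made up between 43.8% and 54.6% of the summed FPKM of the 9 genes in WT libraries, between 16.7% and 40% in Tyr-NrasQ61K libraries and between 24.2% and 39.4% in MHCII-KO libraries. The other 7 genes had a sum between 299 and 354 in WT libraries, between 316 and 506 in Tyr-NrasQ61K libraries and between 299 and 345 in MHCII-KO libraries, and overlapped.

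**Figure D4:**
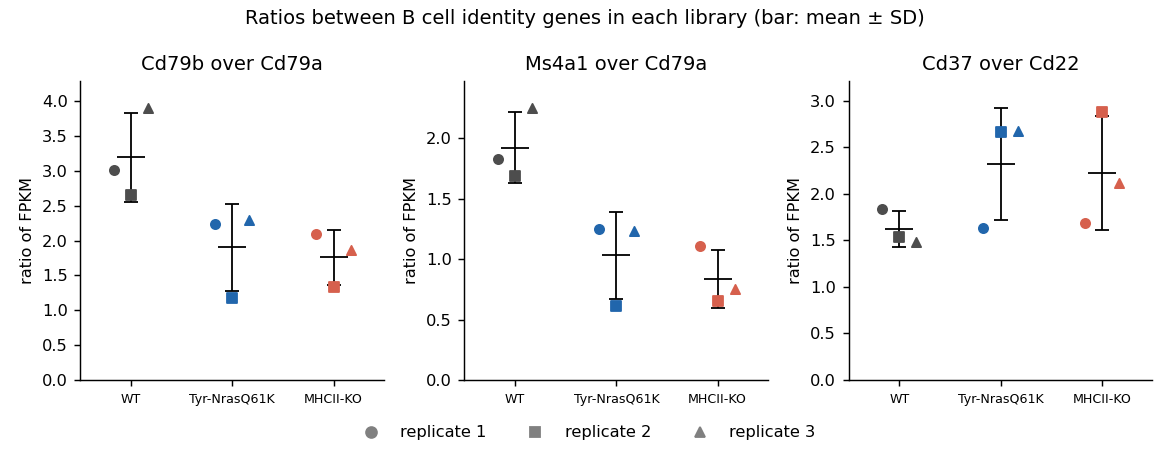
Ratio of FPKM (y axis, from 0) of Cd79b over Cd79a, Ms4a1 over Cd79a and Cd37 over Cd22 in each library, with the mean ± SD of each group as bars. The first 2 ratios were lower in all 6 NrasQ61K libraries than in the WT libraries, and Cd37 over Cd22 ran from 1.48 to 1.84 in WT and from 1.63 to 2.88 in the others.

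T cell genes were set beside the B cell genes, since both lymphocytes share the node. The summed FPKM of the 9 B cell genes over that of 20 T cell genes was 1.25, 1.32 and 1.01 in WT, 1.4, 1.27 and 1.18 in Tyr-NrasQ61K, and 1.21, 1.44 and 0.979 in MHCII-KO libraries, and the groups overlapped. Against the 4 CD3 genes alone (Cd3e, Cd3d, Cd3g and Cd247), the ratio was between 4.23 and 6.7 in WT libraries. It was between 7.23 and 11.5 in Tyr-NrasQ61K libraries and between 7.01 and 11.4 in MHCII-KO libraries, with no overlap with WT. The CD3 sum had a mean of 120 in WT, 64.6 in Tyr-NrasQ61K and 58.2 in MHCII-KO libraries. The sum of the 9 B cell genes had means of 649, 575 and 483 in the same order. The higher mean ratio thus came with a lower mean CD3 sum, not with a higher mean B cell sum. Of all single genes tested, 18.7% in Tyr-NrasQ61K and 31.3% in MHCII-KO did not overlap with WT. How often other ratios separate from WT was not tested. Cd3d, a chain of the T cell receptor complex, had 27.7, 22 and 41.3 in WT and 11.9, 14.3 and 21.8 in Tyr-NrasQ61K libraries (adjusted p = 0.316). Cd4, which macrophages and dendritic cells can also express, had 59, 30.4 and 59.7 in WT and 106, 56 and 176 in Tyr-NrasQ61K libraries (adjusted p = 0.328). No T cell gene was called by limma in either comparison with WT. At an unadjusted p under 0.05 there were 1 higher and 5 lower of 20 in Tyr-NrasQ61K and 5 lower in MHCII-KO, where 15.2% and 15% of all genes passed. The median of the 20 was -0.39 in Tyr-NrasQ61K and -0.40 in MHCII-KO, beside -0.12 and -0.22 over all genes.

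**Figure D5:**
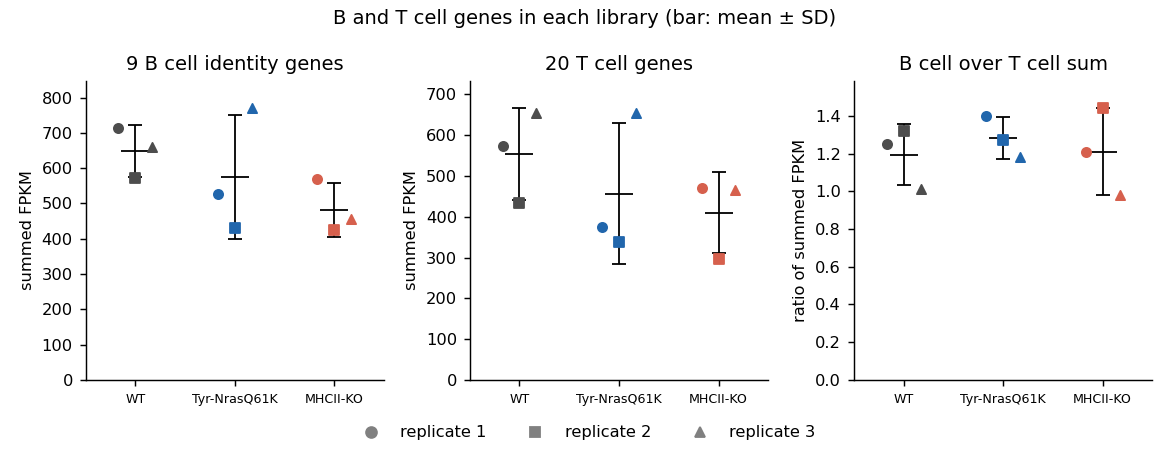
Summed FPKM of the 9 B cell genes, of 20 T cell genes, and the ratio of the sums (y axes, from 0) in each library, with the mean ± SD of each group as bars. The ratio was between 0.979 and 1.44 in all 9 libraries and overlapped between the 3 groups.

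Other genes of the B lineage gave no call either. Of 27 further B cell genes, 26 were in the table and tested, 0 were called against WT in either NrasQ61K group, and the median was -0.31 in Tyr-NrasQ61K and -0.34 in MHCII-KO, beside -0.12 and -0.22 over all genes. At an unadjusted p under 0.05 there were 1 higher and 3 lower in Tyr-NrasQ61K, and 1 higher and 5 lower in MHCII-KO, where 15.2% and 15% of all genes passed. Cd24a, a surface glycoprotein of immature and mature B cells, had 51.5, 31.5 and 42.9 in WT, 28.9, 9.4 and 26.2 in Tyr-NrasQ61K, and 24, 14.2 and 18.5 in MHCII-KO libraries, with no overlap with WT (adjusted p = 0.321 and 0.329). Fcrl5, an Fc receptor-like protein of B cells, lay between 3.04 and 4.71 in WT and between 0.755 and 2.59 in the other libraries (adjusted p = 0.316 and 0.303). Pou2f2, a transcription factor that binds the octamer, ran the other way, at 4.39, 6.03 and 3.3 in WT, 6.99, 16.3 and 9.15 in Tyr-NrasQ61K, and 6.91, 8.93 and 9.26 in MHCII-KO libraries (adjusted p = 0.253 and 0.329). Ighm, the heavy chain of IgM, had the highest level of the list, between 817 and 2042 in WT libraries, between 363 and 1495 in Tyr-NrasQ61K libraries and between 710 and 2194 in MHCII-KO libraries.

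Of 18 genes that carry the B cell receptor signal onward, all were tested and 0 were called in either comparison with WT, with medians of 0.16 in Tyr-NrasQ61K and -0.07 in MHCII-KO. Sh3bp5, an inhibitor of Btk, was the 1 gene of 18 with an unadjusted p under 0.05, in Tyr-NrasQ61K, where 15.2% of all genes passed. It had 11.9, 15.5 and 14.4 in WT and 15.3, 27 and 28.8 in Tyr-NrasQ61K libraries (adjusted p = 0.316). Ptpn6, the phosphatase SHP-1 that Cd22 recruits, had 341 in Tyr-NrasQ61K replicate 3 and 48.1 to 97.6 in the other 8 libraries. It was thus highest in the library where Pax5 was highest. Inpp5d, the inositol phosphatase SHIP-1, was highest in the same library at 93.5, with 42.4 to 67.1 in the others.

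Genes of the B cell follicle and of later B cell stages were examined next. Of 10 follicular dendritic cell genes, 9 were tested and 0 called. In Tyr-NrasQ61K 5 of 9 lay below 0, from -1.29 to 0.43, and in MHCII-KO 7 of 9, from -1.18 to 0.22. The lowest in both was Cxcl13, the chemokine that draws B cells into follicles, with 102, 53.7 and 112 in WT libraries. It had 54.8, 12.2 and 58.4 in Tyr-NrasQ61K and 52.5, 21.1 and 45.2 in MHCII-KO libraries (adjusted p = 0.344 and 0.353). Its lowest values fell in the same 2 libraries as those of Cd79b and Ms4a1. Of 8 germinal center genes, 7 were tested and 0 called, with 4 of 7 below 0 in Tyr-NrasQ61K, from -0.81 to 0.58, and 5 of 7 in MHCII-KO, from -1.06 to 0.22. Bcl6, the transcription factor that defines germinal center B cells, had 5.98, 5.02 and 5 in WT, 5.79, 6.32 and 7.23 in Tyr-NrasQ61K, and 5.62, 6.15 and 5.79 in MHCII-KO libraries (adjusted p = 0.438 and 0.684). Gcsam, a signalling adaptor of germinal center B cells, lay between 2.09 and 4.03 in WT libraries, between 1.15 and 1.44 in Tyr-NrasQ61K libraries and between 0.74 and 1.56 in MHCII-KO libraries (adjusted p = 0.244 and 0.219). All 8 marginal zone and B-1 genes were tested, with 0 called, and Cd1d1, a lipid-presenting molecule, had 13.9 to 14.4 in WT and 4.32 to 10.9 in the other libraries (adjusted p = 0.295 and 0.329). All 8 plasma cell genes were tested, with 0 called, and Jchain, the joining chain of secreted IgM and IgA, overlapped between groups, with 152 to 478 in WT and 132 to 482 in the others. At an unadjusted p under 0.05 there were, in Tyr-NrasQ61K and MHCII-KO in turn, 1 and 0 lower follicular dendritic cell genes, 2 and 3 lower germinal center genes, 2 and 2 lower marginal zone and B-1 genes with 2 and 0 higher, and 0 and 0 plasma cell genes. Over all genes tested, 15.2% and 15% passed.

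Markers of other cells of the node were examined beside the B cell genes. Of 12 macrophage genes, 2 were called higher in both comparisons with WT, whereas 7 lay below 0 in Tyr-NrasQ61K and 5 in MHCII-KO. Gpnmb, a glycoprotein of phagocytes and pigment cells, had 4.23, 1.57 and 3.56 in WT and 96.4 to 204 in the other libraries (adjusted p = 0.00122 and 0.00177), and Trem2, a lipid receptor of macrophages, 0.382 to 2.08 in WT and 16.9 to 26.6 in the others (adjusted p = 0.00491 and 0.00747). Csf1r ran the other way, with 63.6, 33.3 and 66.2 in WT, 31.7, 23.2 and 28.9 in Tyr-NrasQ61K, and 26.7, 21.8 and 41.1 in MHCII-KO libraries (adjusted p = 0.317 and 0.329). The whole macrophage list had a sum between 690 and 1506 in WT libraries, between 788 and 1820 in Tyr-NrasQ61K libraries and between 1017 and 1654 in MHCII-KO libraries. Of 8 melanocyte genes, 5 were tested, and Dct, a melanin-synthesis enzyme, rose in Tyr-NrasQ61K (adjusted p = 0.0431), from at most 0.0508 in WT to 5.81, 4.16 and 2.77. The 8 dendritic cell genes had a sum between 89.7 and 140 in WT libraries, between 46.9 and 92.2 in Tyr-NrasQ61K libraries and between 52 and 75.2 in MHCII-KO libraries, and the 8 stroma genes had sums of 685 to 1646, 206 to 720 and 225 to 459 in the same order. In both lists 0 genes were called against WT in either group, as in the 7 MHC class II genes. At an unadjusted p under 0.05 there were, in Tyr-NrasQ61K and MHCII-KO in turn, 3 and 4 lower dendritic cell genes, 3 and 3 lower stroma genes with 1 and 1 higher, and 0 and 1 lower MHC class II genes. Of the macrophage genes, 2 and 1 were lower and 2 and 2 higher, and of the melanocyte genes 3 and 3 were higher. Over all genes tested, 15.2% and 15% passed. The part of these cells in the levels of the B cell genes was not tested.

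The 6 other genes whose level ran most like the mean standardised level of the 9 genes over the 9 libraries were Gm14513, Mrpl10, Exoc7, Mettl5, Gm5801 and Gm16412, with Pearson r from 0.968 to 0.976. Mrpl10, a mitochondrial ribosomal protein, had an FPKM of 8.58, 6.45 and 7.32 in WT, 6.43, 4.75 and 10.8 in Tyr-NrasQ61K, and 7.24, 5.42 and 5.16 in MHCII-KO libraries, so that, like Fcer2a, it was highest in Tyr-NrasQ61K replicate 3 and lowest in Tyr-NrasQ61K replicate 2. Of the 9 genes, Fcer2a ran closest to their mean, with r of 0.973, and Cd37 the least, with 0.0204.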

How the data were processed

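Per the labels, all libraries ran on 1 Illumina Genome Analyzer IIx flow cell, and the FPKM values were deposited by the authors as 1 table of 9 libraries. The submitters' processing notes name TopHat, Cufflinks, Cuffdiff and the build mm10. The sources used here give no versions, annotation or strand setting. Of 37819 entries, 18 with several values per library were left out. Genes with FPKM of at least 1 in at least 3 libraries (16587) were fitted as log2(FPKM + 1) by limma 3.58.1 in R 4.3.3, with 1 mean per group, a mean-variance trend and Benjamini-Hochberg adjustment over all genes tested, called at 0.05. Tables and plots were made with Python 3.11.15, and the fit was tested on simulated data. Coordinates, exons and GC content came from GENCODE M21 (GRCm38, the sequence of mm10).

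Relative depth was the most frequent ratio of low FPKM to WT replicate 1 over genes with 1 transcript and 1 exon. FPKM give no read numbers, so no counting interval is given. The genes and lists were chosen with earlier results of these data known. Named beside the 9 genes were some of the genes that a rule picked from each list, the 3 lowest by unadjusted p in Tyr-NrasQ61K against WT and the 2 of highest mean, and the 6 genes most like the mean of the 9. Cd5 stood in 2 lists. Ighd was not matched, and 5 symbols were matched by identifier.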

Additional observations from a re-analysis of the deposited data

How the results depend on the processing

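In 18 alternatives, or 17 for both NrasQ61K groups together, the count of the 9 genes called stayed at 0 in each comparison except with library weights, which called 2 (Tyr-NrasQ61K), 4 (MHCII-KO) and 3 (both groups), and with a replicate block, which called 1 gene, Ms4a1, in both groups against WT (adjusted p = 0.0476). Same-numbered libraries deviated together with r from -0.0384 to 0.332, not all over 0.1, so the numbers were not taken to pair them.

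Over all genes tested, the 39 calls in Tyr-NrasQ61K became 24, 22, 17, 69, 5076 and 894 with pseudocounts of 0.1 and 0.01, no filter, median-ratio scaling, library weights and the replicate block, and 11 to 36 without 1 library. The 24 in MHCII-KO became 15 with a pseudocount of 0.01, 15 with no filter, 7407 with weights, 777 with the block and 9 to 29 without 1 library. The 8 between the NrasQ61K groups became 5 with a pseudocount of 0.01, 24 with weights, 14 without both libraries that stood apart and 7 to 11 without 1 library. The 66 for both groups became 40 with a pseudocount of 0.01, 165 with median-ratio scaling, 173 with quantile normalization, 7542 with weights, 2675 with the block and 26 to 98 without 1 library.

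Median-ratio scaling moved the median of all genes from -0.12 to 0.01 in Tyr-NrasQ61K and from -0.22 to -0.01 in MHCII-KO. Signs of uncalled genes turned with it in Tyr-NrasQ61K for Cd79a (0.01) and Blk (0.02), and in MHCII-KO for Cd79a (0.19), Fcer2a (0.03) and Cd22 (0.16), and with quantile normalization in MHCII-KO for Cd79a (0.22), Fcer2a (0.04) and Cd22 (0.19). Fcer2a in Tyr-NrasQ61K turned to -0.08 with weights. Without both libraries that stood apart, Cd79a was 0.09 and Cr2 0.16 in Tyr-NrasQ61K, and Cd79a 0.04 in MHCII-KO. Without 1 library, Cd79a ran from -0.35 to 0.09, Cr2 from -0.56 to 0.16 and Fcer2a from -0.27 to 0.29 in Tyr-NrasQ61K, and Cd79a from -0.18 to 0.05 and Pax5 from -0.02 to 0.18 in MHCII-KO. Between the NrasQ61K groups, Ms4a1 was 0.02 with quantile normalization and Cd79b -0.22 with weights and -0.25 without both libraries that stood apart, and without 1 library Ms4a1 ran from -0.75 to 0.18 and Cd79b from -0.55 to 0.38. Ms4a1 and Cd79b lay below 0 against WT in every alternative, Ms4a1 from -1.60 to -0.53 and Cd79b from -1.31 to -0.38. Using no filter, the replicate block, only the groups compared, or fewer libraries of a group not compared cannot move these differences. The log2 ratio of B to T cell sums, 0.11 in Tyr-NrasQ61K and 0.01 in MHCII-KO above WT, was 0.78 and 0.62 with CD3 genes alone. The causes were not tested.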
